A study of Homo sapiens with 42 samples.

Results

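TMD8 is an established human lymphoma cell line of the ABC-DLBCL type, a large B-cell lymphoma with the profile of activated B cells, and the time change of its transcripts between 8 h and 24 h in culture is described here. The libraries were chosen by their titles: TMD8 with DMSO at 8 h and 24 h, and TMD8 with 100 nM compound 3 at 8 h and 24 h. They are 12 of the 42 libraries of the series, in 4 groups of 3. DMSO is the solvent, and compound 3 is a covalent inhibitor of MALT1, per the series title and design. The series also holds the line OCI-Ly3 under the same 4 conditions, and a lentiviral knockdown of MALT1 in both lines. Whether replicates came from separate cultures is not stated in the labels, so each p-value rests on the spread between these libraries, which may be technical.

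MALT1 is a protease and scaffold that links the B-cell receptor to NF-kB, a family of transcription factors that drives survival genes in this lymphoma type. Cells given only the solvent serve as the reference for an inhibitor at each time. The 2 solvent groups compared with each other show how far transcript levels moved with time alone. The 2 inhibitor groups show whether the same movement recurred when compound 3 was present. Time cannot be told apart from anything else that differed between the harvests at 8 h and 24 h.

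Values are CPM, read counts scaled by the size of the library, for 23250 gene models that carry a number and no name in the files. Each gene model is called a row below. No annotation was laid against the row order, and no sequence is shown for the same reason. MALT1 and B-cell markers could therefore not be read, and the label TMD8 was not checked against markers. The 12 libraries held 32.3 to 37.2 M reads, of which 71.9% to 76.9% lay in the rows, so a CPM of 1 stood for 32.3 to 37.2 reads. Between 11362 and 11510 rows a library reached 1 CPM. The 100 highest rows took 19.1% to 24.1% of the reads in the rows at 8 h and 17.6% to 20.7% at 24 h, ranges that overlap.

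Both 8 h libraries numbered 1 stood apart from the rest. The first principal component of the 12 libraries held 56.7% of the variance. On it they lay at -45.9 with DMSO and -47.9 with compound 3, against -10.1 to -1.24 for the other 8 h libraries and 13.8 to 22.0 for the 24 h libraries. The times did not overlap on this component, and the agents did at each time. Compared with the mean of its group's other 2 libraries, the DMSO library numbered 1 differed by over 1 log2 unit in 536 rows, and the compound 3 library did so in 549. The other 10 libraries did so in 1 to 141 rows. The same rows deviated in both: 432 lay in both sets with the same sign, 80.6% of the DMSO set and 78.7% of the compound 3 set, and none with opposite signs. The main results below are given with and without these 2 libraries.

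**Figure D1:**
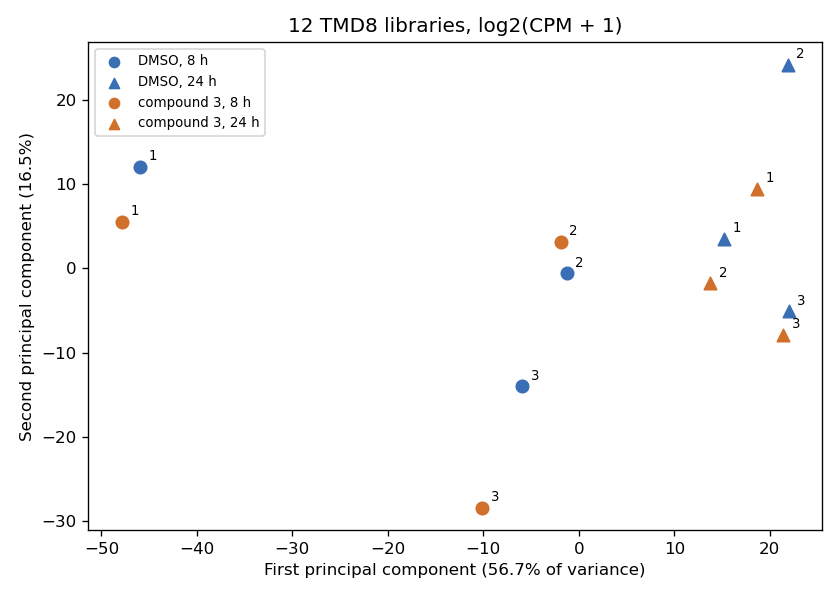
Positions of the 12 TMD8 libraries on the first and second principal components of log2(CPM + 1), with circles for 8 h, triangles for 24 h, blue for DMSO, orange for compound 3 and replicate numbers beside the points. The 8 h libraries numbered 1 lie near -46 and -48 on the first component, and the 24 h libraries at 13.8 to 22.0.

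In DMSO, 72 rows were higher and 200 lower at 24 h than at 8 h. The tests covered 11736 rows that reached 1 CPM in 3 or more of the 12 libraries, and a row is called at a limma adjusted p below 0.05, two-sided, with Benjamini-Hochberg adjustment. The called rows were 2.32% of those tested, 0.613% higher and 1.7% lower. In units of log2(CPM + 1), in which changes of rows near 0 come out too small, the median change was 0.86 for the raised rows and -0.81 for the lowered ones. At least 2-fold changes were seen in 21 raised and 62 lowered rows (13 and 69 without the 8 h libraries numbered 1), and the extremes were 1.83 and -2.60. Over all rows tested the median change was 0.03. Without any call, 29.7% of all rows had DMSO libraries that did not overlap between the times.

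The balance of directions in DMSO moved with the processing. Raised rows were 111 and lowered rows 185 after median-ratio rescaling, 137 and 216 after quantile normalization, and 64 and 224 with each library scaled to the reads in its rows. In a fit that took in the OCI-Ly3 libraries they were 469 and 496. The total also rested on single libraries. It fell to 33, 50, 94, 56 or 48 without DMSO 8 h replicate 3, DMSO 8 h replicate 1 or DMSO 24 h replicate 1, 2 or 3. It fell to 119, 132 or 140 without compound 3 24 h replicate 1, 2 or 3, which enter only through the shared spread, and rose to 549 without compound 3 8 h replicate 1.

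With compound 3, 117 rows were higher and 161 lower at 24 h, by median changes of 0.80 and -0.89. These are 2.37% of the rows tested, 0.997% higher and 1.37% lower. At least 2-fold, 36 rose and 60 fell, and 28.9% of all rows had compound 3 libraries that did not overlap between the times. Raised and lowered rows were 155 and 173 after median-ratio rescaling and 170 and 178 after quantile normalization. The balance turned in the fit that took in the OCI-Ly3 libraries, with 465 raised and 415 lowered. The total was 28, 76 or 32 without compound 3 24 h replicate 1, 2 or 3, and 63, 525 or 66 without compound 3 8 h replicate 1, 2 or 3. It was 592 or 185 without DMSO 8 h replicate 1 or 3.

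The time change of DMSO recurred under the inhibitor in direction in every row called in DMSO, and in size for most of them. All 272 rows moved the same way with compound 3, against 80.9% of all rows tested. The 72 rows raised in DMSO had a median change of 0.75 with compound 3, and the 200 lowered rows one of -0.75. The compound 3 change was at least 50% of the DMSO change in 267 of the 272, with a median of 92.0% of it. In 269 of the 272 the compound 3 libraries of the times did not overlap in that direction, against the 28.9% of all rows. The change that chose the rows came from the DMSO libraries, but the spread in its test was shared with the compound 3 libraries in which they were read. A fit of the 6 DMSO libraries alone called 57 rows, a choice made after seeing the data. All 57 moved the same way with compound 3 without overlap between the times. Of 114 rows called in the compound 3 libraries alone, 113 moved the same way in DMSO. The 8 h libraries numbered 1 of the agents nevertheless deviated together, as given above, and the part of such sharing in the recurrence was not tested.

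Fewer rows passed the threshold with both agents. Of the 272, 164 were also called with compound 3 in the same direction, 43 of 72 raised and 121 of 200 lowered, or 60.3% of them, against 2.37% of all rows. They were 59.0% of the 278 called with compound 3, 36.8% of the 117 raised and 75.2% of the 161 lowered. In these raised and lowered rows the DMSO change was a median of 76.2% and 95.3% of the compound 3 change. Without the 8 h libraries numbered 1, the shares called were 48.4% of raised and 77.9% of lowered rows. The shares of 60.3% and 59.0% ran from 10.4% to 100% and from 7.94% to 92.9% when 1 library was left out. They were lowest without compound 3 8 h replicate 1 and DMSO 8 h replicate 1. The other 108 rows called in DMSO alone all kept their direction, with a median change of 70.2% of the DMSO one. Of them, 103 had an unadjusted limma p below 0.05 with compound 3, against 2703 of all 11736 rows. Of 114 called with compound 3 alone, 113 kept their direction in DMSO, at 69.6% of the size. There 102 had an unadjusted limma p below 0.05, against 2838 of all rows. These rows were picked for passing with 1 agent only, so smaller changes with the other follow in part from the choice. A row called with 1 agent and not with the other is therefore not shown to differ between them.

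The shared calls rested on single libraries as well. The number called with both agents was 33, 47, 41, 43, 57, 53, 26, 53 or 29 without DMSO 8 h replicate 3, DMSO 8 h replicate 1, DMSO 24 h replicate 3 or 2, compound 3 8 h replicate 1 or 3, or compound 3 24 h replicate 1, 2 or 3. It was 78 without DMSO 24 h replicate 1. The shared direction held more widely: among the rows called in DMSO it was 99.8% to 100% in the 12 fits that each left out 1 library. Over all rows it was 80.9% with all 12 libraries.

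**Figure D2:**
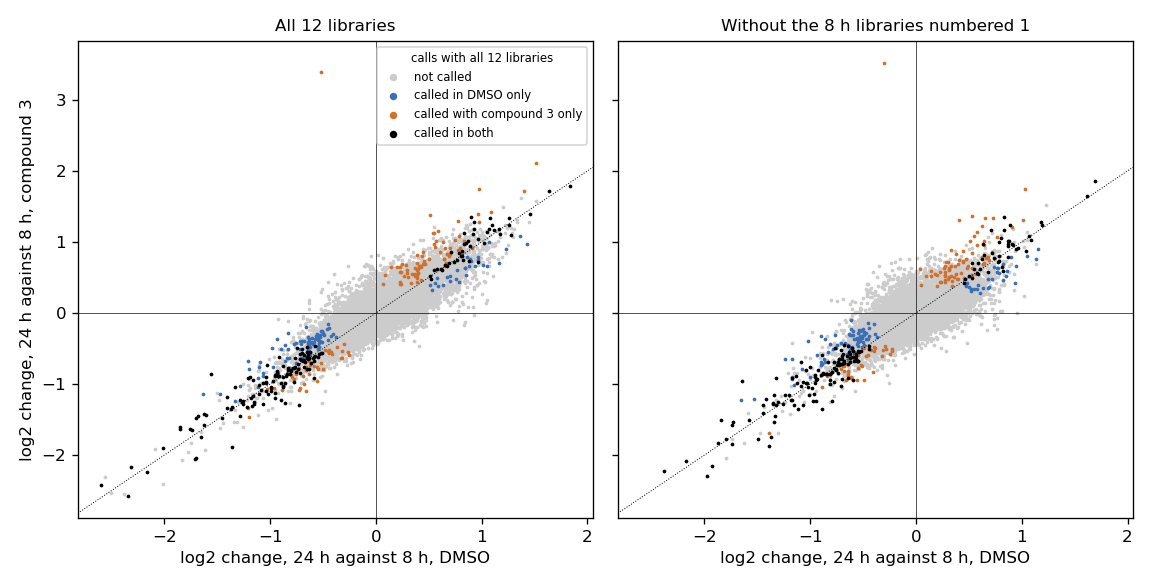
Change from 8 h to 24 h in log2(CPM + 1) with DMSO (x axis) and with compound 3 (y axis) for each of the 11736 rows, with all 12 libraries on the left and without the 8 h libraries numbered 1 on the right. Colours show the calls made with all 12 libraries, and the dotted line marks equal changes. The called rows lie along that line, except 1 row at the top, which reached 3.40 with compound 3 and -0.52 with DMSO.

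Whether the time change differs under the inhibitor was tested by the difference of the changes itself. No row differed by limma (0% called), by edgeR 0 rows did and by DESeq2 1. With no adjustment, limma gave 75 rows with p below 0.05, edgeR 104 and DESeq2 122, all below the 586.8 that a share of 0.05 of unchanged rows would give. The fit may thus be conservative, and these counts do not show that the time changes are alike. It takes the libraries as independent, although 8 h libraries of the same number deviated together. A fit with blocks by number within each time, chosen after seeing the data, called 0 rows. It gave 804 rows with an unadjusted p below 0.05, above the 586.8, and 372 without the 8 h libraries numbered 1. Those blocks pair by the labelled number, which is in doubt at 24 h. For the 272 rows called in DMSO, the 95% interval of the difference in the fit without blocks reached a median of 0.50 log2 units to each side. It had no adjustment for the number of rows, and it left out 0 in 5 rows.

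The row that DESeq2 called is the only row called with compound 3 that went the other way in DMSO, and it was chosen for this after its values were seen. With compound 3 it held 0.752, 0.576 and 0.168 CPM at 8 h and 25.4, 17.3 and 6.82 CPM at 24 h, replicates 1 to 3. With DMSO it held 4.06, 0.407 and 6.50 CPM at 8 h and 1.99, 1.56 and 1.37 CPM at 24 h. The compound 3 libraries of the times did not overlap, while those of DMSO did. Its log2 changes were 3.40 (limma adjusted p = 0.0112) and -0.52 (limma adjusted p = 0.567). The difference of 3.92 (SE 0.76) was not called by limma (adjusted p = 0.9998, unadjusted p = 0.000245), and the DESeq2 adjusted p was 0.00793.

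Larger time changes kept their direction more often. Over all rows, sorted by the size of the DMSO change and without regard to calls, the 93 rows that rose by at least 1 log2 in DMSO all rose with compound 3, by a median of 0.99 against 1.08. The 111 that fell by at least 1 all fell, by medians of -1.22 in both. Among rows that moved by 0.5 to 1, 99.4% of 1024 that rose and 98.6% of 581 that fell kept their direction. Among those that moved by less than 0.25, 72.1% of 3345 and 67.5% of 3269 did. Without the 8 h libraries numbered 1, only 19 rows rose by at least 1 log2 in DMSO, and all rose with compound 3, while 84 fell, and all fell. The class of 0.5 to 1 then held 436 rows that rose, with medians of 0.60 in DMSO and 0.46 with compound 3. Across the 11736 rows the changes of the agents had a Pearson correlation of 0.861 and a Spearman correlation of 0.817, which describe rows that share libraries and are not independent.

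Without the 8 h libraries numbered 1, the totals for each agent stayed close, while the raised rows of DMSO went from 72 to 110 and many of the called rows changed. DMSO called 287 rows, 110 higher and 177 lower (2.45%), and compound 3 called 268, 128 higher and 140 lower (2.28%). Of the 272 and 287 DMSO rows, 173 were called both times, 63.6% and 60.3% of each list. All 272 kept their direction, and their medians went from 0.86 to 0.78 and from -0.81 to -0.75. For compound 3 the shared rows were 174, 62.6% of the 278 and 64.9% of the 268. All 287 DMSO rows again moved the same way with compound 3, against 74.8% of all rows. Their median was 89.8% of the DMSO size, and 171 were called with both. No row differed between the agents (limma, 0 by adjusted p and 92 by unadjusted p below 0.05), and the correlation across rows fell to 0.758.

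In the 2 libraries left out most called rows differed from the 24 h mean in the same direction, and by more for the raised rows. Of 110 rows raised in DMSO without them, 108 were higher in the 24 h mean than in the left-out DMSO library, by a median of 1.38 against 0.67 for the other 8 h libraries. Of 177 lowered rows, 169 were lower, by -0.94 against -0.86. With compound 3, 127 of 128 raised rows and 133 of 140 lowered rows did the same, by medians of 1.33 against 0.72 and -1.02 against -0.94. These libraries took no part in choosing the rows, while the other values in the comparison did. They also lay low in many rows. Of the 536 and 549 rows that differed by over 1 log2 unit from their groups, 442 with DMSO and 437 with compound 3 were lower. The part of this in the larger differences of the raised rows was not tested, and no share over all rows is given.

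**Figure D3:**
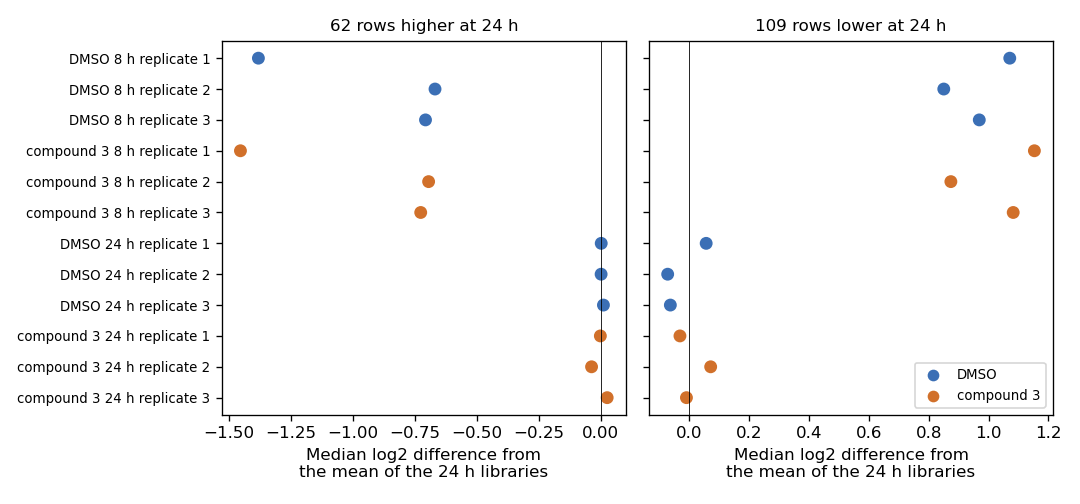
Median log2 difference of each of the 12 libraries from the mean of the 24 h libraries, over the 62 rows raised and the 109 rows lowered with both agents in the fit without the 8 h libraries numbered 1. For the raised rows these 2 libraries lie at -1.38 and -1.45 and the other 8 h libraries at -0.73 to -0.67. For the lowered rows the 8 h libraries lie at 0.85 to 1.15.

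Taken over both agents, with 6 libraries at each time, 1356 rows were higher and 1233 lower at 24 h, 22.1% of those tested, by median changes of 0.52 and -0.46. This fit takes the libraries as independent, although 8 h libraries of the same number deviated together. With the DMSO and compound 3 libraries of the same time and number averaged to 1 value, 3 a time, 106 rows were called, 23 higher and 83 lower, an alternative chosen after seeing the data. Without number 1 at 8 h the averaged values called 571 rows, 249 higher and 322 lower. The averages pair the agents by the labelled number, although at 24 h the deviations of numbers 1 and 2 correlated at -0.18 and -0.16. The counts of averaged values carry that doubt. With single libraries the total was 1668 without both 8 h libraries numbered 1, 794 higher and 874 lower, and 1489 rows were called both times. It was 1596 without either of these libraries alone, and 1312 or 1507 without compound 3 24 h replicate 1 or 3.

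In 844 rows all 6 libraries at 24 h lay above all 6 at 8 h, and in 753 rows below, 13.6% of the rows. Of the 164 rows called with both agents, 163 were separated in this way. Without the 8 h libraries numbered 1 these counts were 897 above and 997 below, and 170 of 171. The called rows were chosen in these same libraries, so their separation follows largely from the choice and adds no evidence. Only 8 rows passed from under 1 CPM in every 8 h library to at least 1 CPM in every 24 h library, and 13 did the reverse. CPM is not divided by length, so a class of CPM ranks rows by reads and not by transcript level. Over both agents, 23.5% of 2272 rows under 5 CPM were called, 23% of 2941 from 5 to 20 CPM, 19.6% of 4880 from 20 to 100 CPM, 25.9% of 1580 from 100 to 1000 CPM and 17.5% of 63 over 1000 CPM. These shares followed no order.

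Row 9068 fell most in DMSO of the 160 lowered candidates. It held 125, 87.3 and 72.0 CPM at 8 h and 18.5, 13.5 and 11.9 CPM at 24 h with DMSO, replicates 1 to 3. With compound 3 it held 123, 84.9 and 76.3 CPM and then 16.6, 18.8 and 14.3 CPM. The times did not overlap with either agent, and both 8 h libraries numbered 1 were the highest of their groups. The DMSO means were 94.8 ± 27 and 14.6 ± 3.4 CPM (SD, n = 3 each), a log2 change of -2.60 (SE 0.23; limma adjusted p = 0.00116). With compound 3 the change was -2.42 (SE 0.23; limma adjusted p = 0.00251), and without the 8 h libraries numbered 1 the changes were -2.38 and -2.22. Of 23 alternative settings, all kept both calls.

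Row 6086 rose most of the 49 raised candidates. It held 2.36, 5.50 and 3.26 CPM at 8 h and 18.2, 14.3 and 13.3 CPM at 24 h with DMSO, and 2.40, 3.80 and 3.39 CPM and then 16.1, 11.4 and 13.1 CPM with compound 3. Every 24 h library lay above every 8 h library. The log2 changes were 1.83 with DMSO and 1.79 with compound 3 (SE 0.24; limma adjusted p = 0.0054 and 0.00464), and 1.61 and 1.65 without the 8 h libraries numbered 1. Both calls held in all 23 settings. The difference between the agents was -0.04, with a 95% interval from -0.76 to 0.69.

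Rows 7440 and 1256 were picked as the candidates whose DMSO change exceeded the compound 3 change most, so the gap itself is a description. Row 7440 held 27.8, 28.3 and 39.2 CPM at 8 h and 10.5, 9.98 and 9.48 CPM at 24 h with DMSO. With compound 3 it held 24.7, 27.2 and 34.8 CPM and then 17.7, 12.2 and 16.8 CPM. The times did not overlap with either agent, and the 24 h libraries with compound 3 all lay above those with DMSO. The log2 changes were -1.56 (SE 0.18; limma adjusted p = 0.00372) and -0.85 (limma adjusted p = 0.0335), and -1.64 and -0.95 without the 8 h libraries numbered 1. The difference of 0.71 (SE 0.25) was not called (limma adjusted p = 0.9998). The compound 3 call ended without a filter on low values, in the fit of 24 libraries, and without compound 3 8 h replicate 1 or 3 or any compound 3 24 h library, with adjusted p up to 0.112.

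Row 1256 held 5.70, 12.9 and 12.5 CPM at 8 h and 22.8, 24.4 and 22.4 CPM at 24 h with DMSO. With compound 3 it held 7.97, 15.4 and 11.9 CPM and then 19.9, 20.2 and 17.2 CPM. The times did not overlap with either agent, and both 8 h libraries numbered 1 were the lowest of their groups. The log2 changes were 1.17 (SE 0.27; limma adjusted p = 0.0453) and 0.70 (limma adjusted p = 0.157, not called). Without the 8 h libraries numbered 1 they were 0.82 and 0.46. The DMSO call ended without DMSO 8 h replicate 1 or 3, compound 3 8 h replicate 3, any 24 h library, or a filter on low values, with adjusted p up to 0.137.

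**Figure D4:**
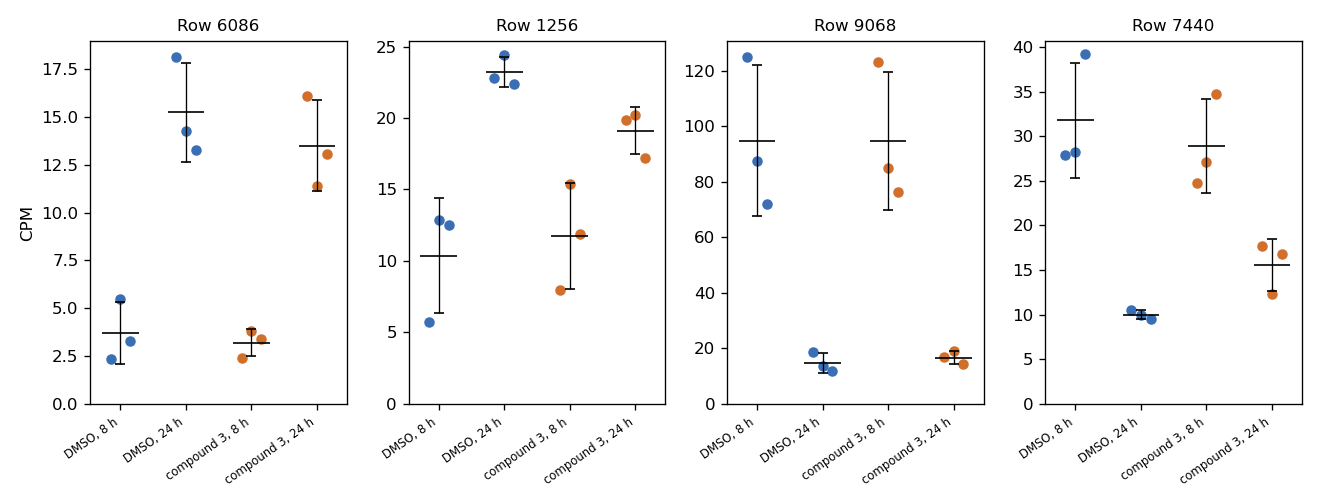
CPM of rows 6086, 1256, 9068 and 7440 in each of the 12 libraries, with points for replicates 1 to 3 from left to right in each group, lines for the mean and bars for the SD (n = 3). In all 4 rows the 24 h libraries do not overlap the 8 h libraries of the same agent, and row 7440 stays higher at 24 h with compound 3 than with DMSO.

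The rows called with both agents were read in libraries that had no part in choosing them. In OCI-Ly3 with DMSO, 115 of the 121 lowered rows also had a change below 0, against 52.3% of all rows. Their median change was -0.42, against -0.01 over all rows. There 30 of the 121 were called lower, against 2.26% of all rows, and 2 of the 43 raised rows were called higher, against 0.921%. The OCI-Ly3 calls came from a fit that also held the TMD8 libraries. Their spread per row was thus shared with the libraries that chose the rows, and only the OCI-Ly3 changes were separate from the choice. The raised rows had a median change of 0.13 in OCI-Ly3, and 32 of 43 lay above 0, against 47.7% of all rows. For the rows called with both agents without the TMD8 8 h libraries numbered 1, 100 of 109 lowered and 45 of 62 raised rows had the same sign there, with medians of -0.36 and 0.34, and 19 and 4 were called. In a test of the difference between the lines over all 24 libraries of the compound experiment, the time change differed in 29 of 12589 rows (0.23%), 21 of them further up or less far down in TMD8 and 8 the reverse. Of the rows called with both agents, 6 of the 43 raised and 5 of the 121 lowered were among the 29. The test between the lines holds the TMD8 DMSO changes that chose these rows, so this overlap is not independent of the choice. Leaving out both TMD8 8 h libraries numbered 1 gave 37 rows that differed between the lines. The count was 7, 66 or 18 without TMD8 8 h replicate 1, 2 or 3, 14 or 6 without TMD8 24 h replicate 2 or 3, 10 or 49 without OCI-Ly3 8 h replicate 1 or 3, and 12, 9 or 4 without OCI-Ly3 24 h replicate 1, 2 or 3.

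The MALT1 knockdown of TMD8 was tested on its 9 libraries and the same rows. Hairpin 1 lowered 26 and raised 9 of the 121 lowered rows, against 6.83% lowered and 8.25% raised over all rows. Hairpin 2 lowered 30 and raised 31 of them, against 9.3% and 12.8%. Of the 43 raised rows, hairpin 1 raised 5 and lowered 6, and hairpin 2 raised 5 and lowered 7. The median changes of the lowered rows were -0.07 and -0.11, against 0.02 and 0.03 over all rows. Of the 109 rows lowered in the fit without the 8 h libraries numbered 1, hairpin 1 lowered 22 and raised 7, and hairpin 2 lowered 30 and raised 20. Both hairpins were compared with the same control libraries.

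**Figure D5:**
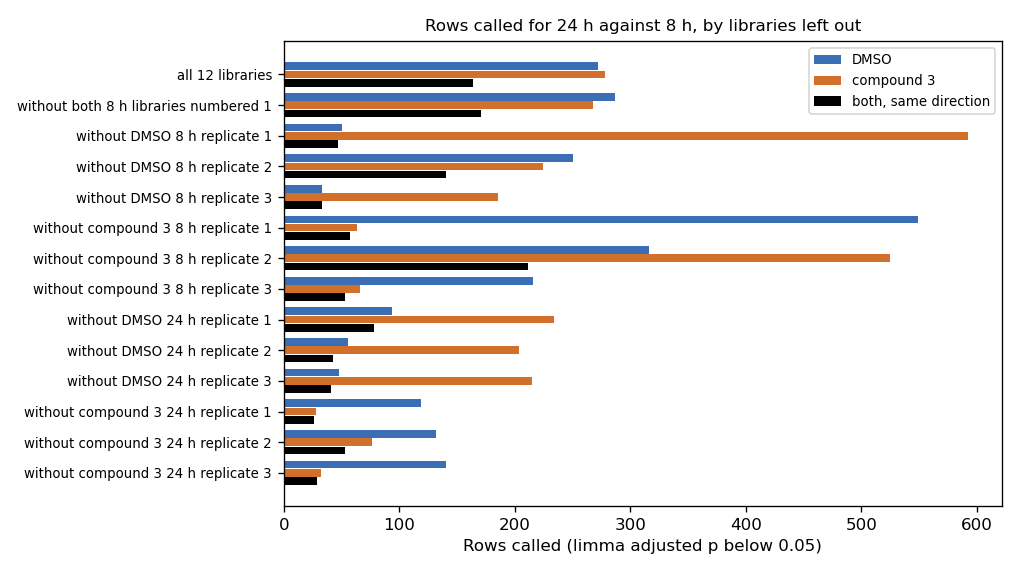
Number of rows called for 24 h against 8 h with DMSO, with compound 3 and with both in the same direction, for all 12 libraries and with libraries left out. Bars start at 0, and the counts range from 33 to 549 for DMSO, 28 to 592 for compound 3 and 26 to 211 for both when 1 library is left out.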

How the data were processed

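The kit for the TMD8 libraries was stranded and selected mRNA (labels' protocols). The submitters' processing notes name STAR and the human build hg19. How reads were counted, and on which strand, is not stated in these sources. The authors deposited CPM per RefSeq gene model, per the file names. All values were whole multiples of the smallest of their library (100% within 1e-06), which recovers the reads. Near-identical or overlapping genes may share reads and are not marked. No pair of libraries within a group was a duplicate: the 12 pairs gave a chi-square of 14.9 to 103 per degree of freedom.

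Groups came from the titles. The main test was limma 3.58.1 (R 4.3.3), applied to log2(CPM + 1) with 1 model of 4 group means, eBayes with a mean-variance trend, for rows that reached 1 CPM in 3 of the 12 libraries. edgeR 4.0.16 (quasi-likelihood, TMM) and DESeq2 1.42.0 (Wald test) were run on the recovered reads. All 3 were tested on simulated data with known changes and independent libraries. DESeq2 exceeded the limit on false calls first set for all 3, which was then held to limma and edgeR only, so its larger counts are to be read with that in mind. The time change of OCI-Ly3 came from a fit of all 24 libraries of the compound experiment.

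Other settings were another pseudocount, filter, scaling, set of libraries and a replicate block. Single rows were named by rule. Candidates were called in DMSO, had a mean of at least 5 CPM and libraries that did not overlap between the times. In each direction the row with the largest DMSO change and the row whose DMSO change most exceeded the compound 3 change are given. The libraries, contrasts and lists were chosen with earlier results of these data known.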

Additional observations from a re-analysis of the deposited data

Results flagged for a closer look

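The change from 8 h to 24 h in DMSO differed between TMD8 and OCI-Ly3 in 29 rows by the test of the difference itself (limma adjusted p below 0.05). Of these, 18 had changes of opposite sign in the lines, and 14 moved further in TMD8.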

How the results depend on the processing

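The 272 rows called in DMSO and 278 with compound 3 became 1185 and 1151 with DESeq2, 965 and 880 in a fit of all 24 libraries, and 57 and 114 with each agent fitted alone. DMSO gave 159 without a filter. The difference between the agents was 0 rows in every setting except 1 with DESeq2 and 1 without DMSO 8 h replicate 2. Leaving out 1 library gave 33 to 549 rows for DMSO, 28 to 592 for compound 3, 0 to 1 for the difference and 1312 to 3371 over both agents. The share of DMSO rows also called with compound 3 was 10.4% to 100%, the reverse share 7.94% to 92.9%, and the difference between the lines 4 to 66 rows. That difference was 48 after quantile normalization. Over both agents, 1668 rows were called without both 8 h libraries numbered 1. With libraries of the same time and number averaged, 106 were called from all numbers and 571 without number 1 at 8 h. The cause was not tested.

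Whether replicate numbers pair the times was not settled. Deviations from the group means of same-numbered libraries at 8 h and 24 h correlated at 0.16, 0.09 and 0.40 for DMSO, numbers 1 to 3. For compound 3 they correlated at 0.10, -0.21 and 0.32. Unlike numbers were not compared across the times. With a replicate block, 1169 rows were called with DMSO, 1200 with compound 3, 4147 over both agents, 336 between the lines and 0 for the difference. Between the agents, same-numbered libraries correlated at 0.92, 0.75 and 0.76 at 8 h. At 24 h number 3 did so at 0.80, but numbers 1 and 2 at -0.18 and -0.16, while DMSO 1 went with compound 3 number 2 (0.63) and DMSO 2 with compound 3 number 1 (0.66). Deviations shared by both agents enter both time changes, and their part in the recurrence was not tested. Blocks within each time, chosen after seeing the data, called 0 rows for the difference, and 0 again without the 8 h libraries numbered 1. At an unadjusted p below 0.05 the counts were 804 and 372, against 586.8 for a share of 0.05 of unchanged rows. They pair by the number as labelled, which the 24 h correlations of numbers 1 and 2 go against, so these counts carry that doubt.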
